A study of Mus musculus with 18 samples.

Results

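The natriuretic peptide system was followed through 6 of the 23420 genes in the count tables: the peptide genes Nppa and Nppb, the protease gene Corin, and the receptor genes Npr1, Npr2 and Npr3. They were taken by gene symbol for their known roles in this system, and all 6 were found. The data are bulk RNA sequencing libraries of primary fibroblasts from the hearts of neonatal CD1 mice during direct cardiac reprogramming, in which a retrovirus with Mef2c, Gata4 and Tbx5 on 1 transcript drives fibroblasts towards a cardiomyocyte-like state. The main set held 12 libraries in 4 groups of 3. Short hairpin RNAs (shRNAs) were directed at Mtfr1l, a mitochondrial outer membrane protein (shMtfr1l), at Opa1, the GTPase of inner mitochondrial membrane fusion (shOpa1), or at both (double knockdown), and the control received a shRNA without a target (shNT). Every group, shNT included, carried the reprogramming factors. The titles put replicates 1, 2 and 3 of each group on days 7, 8 and 9. An earlier set adds 1 shMtfr1l sample and 1 shNT sample of reprogramming cells from day 7. The sample descriptions call replicates 1, 2 and 3 biological replicates. Whether these stem from separate animals is not stated, so the p-values speak of the spread among these libraries.

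Nppa encodes the precursor of atrial natriuretic peptide and Nppb that of brain natriuretic peptide, hormones that heart muscle secretes when stretched. Corin is a membrane serine protease of cardiomyocytes that cuts the atrial precursor into the active hormone. Npr1 is the guanylyl cyclase receptor that answers both peptides by making cyclic GMP (cGMP), Npr2 is the guanylyl cyclase receptor for the C-type peptide, and Npr3 is the clearance receptor, which lacks the cyclase domain and removes the peptides from outside the cell. Both peptide genes are active in the embryonic heart and return in stressed ventricles, where GATA, T-box, NKX2-5, MEF2 and SRF factors are known to act on them.

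Nppa and Nppb are neighbours. In mm10, the build of the count tables, Nppb lies at chr4:147985789-147987205 and Nppa at chr4:148000746-148002067, both on the plus strand, each with 3 exon blocks, and 13540 bases separate them. Their promoters are shown since both transcripts fell in shOpa1 and in the double knockdown, and that of Corin since its transcript moved the other way to Nppa in shMtfr1l. Sequences are RefSeq's, from GRCm38.p6, 5′ to 3′ on the gene's strand, with positions counted back from the RefSeq start. For Nppa (chr4:148000472-148000721, plus strand) and Corin (chr5:72504541-72504790, minus strand) the 250 bases before the start are given. For Nppb only the 30 bases with its motif matches are given (chr4:147985799-147985828, plus strand). The count tables begin this gene at 147985789, inside its RefSeq promoter window. These 30 bases thus lie before the RefSeq start but inside the gene as counted. Capitals mark motif matches.
Nppa: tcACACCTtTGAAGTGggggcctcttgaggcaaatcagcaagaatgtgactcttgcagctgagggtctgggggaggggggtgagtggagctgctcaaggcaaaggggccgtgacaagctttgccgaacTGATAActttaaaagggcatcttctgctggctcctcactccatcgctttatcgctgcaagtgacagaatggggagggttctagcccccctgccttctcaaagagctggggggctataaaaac
Nppb: tgcagcTGATAAatcagAGATAAccccacc
Corin: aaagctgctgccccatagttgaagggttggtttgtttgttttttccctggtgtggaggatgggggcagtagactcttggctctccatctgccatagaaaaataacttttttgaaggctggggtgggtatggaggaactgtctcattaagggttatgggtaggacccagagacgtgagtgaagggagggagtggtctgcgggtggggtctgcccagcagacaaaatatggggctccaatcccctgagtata
The search covered both strands of the 250-base window of all 6 genes for GATA motifs (AGATAA, its variant AGATAG, or TGATAA with the variant TGATAG), T-box (AGGTGT) and NKX2-5 (TNAAGTG), and for the MEF2 and SRF CArG motifs. The Nppa window held 1 T-box match on the minus strand (printed as its complement, positions -248 to -243), 1 NKX2-5 match (-241 to -235) and 1 GATA match (-122 to -117). The Nppb window held 2 GATA matches (-95 to -90 and -84 to -79). Npr2 had 1 T-box match (-151 to -146), and the windows of Corin, Npr1 and Npr3 had no match. No 2 of the matches overlap. Of 32841 such windows, 26.5% held a GATA match, 11.8% a T-box match, 10.1% an NKX2-5 match, 2.92% a MEF2 match and 1.47% an SRF CArG match, and a match is a description, not a sign of binding.

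Each library held 16205862 to 25317069 gene counts, and 3 counts, the floor used here, stood for 0.117 to 0.183 CPM (counts scaled to library size with TMM, the trimmed mean of M values). The targets followed the titles: Mtfr1l averaged 16.4 ± 2.88 CPM in shMtfr1l, 69.6 ± 3.34 in shOpa1, 27.2 ± 4.15 in the double knockdown and 71.8 ± 4.17 in shNT (SD, n = 3 each). Opa1 averaged 72.1 ± 1.36, 8.95 ± 3.16 and 18.3 ± 2.34 CPM in the 3 knockdown groups of that order, against 63.1 ± 8.33 in shNT. The genotype field writes shOpa1, shOpa2 and shOpa3 over replicates 1, 2 and 3 of the Opa1 groups, and groups follow the titles here. The cultures are labelled as fibroblasts and induced cardiomyocytes. The summed CPM of 8 cardiomyocyte markers was 3799 to 4143 in shMtfr1l, 1607 to 1820 in shOpa1, 2202 to 2283 in the double knockdown and 2818 to 2904 in shNT. That of 8 fibroblast markers was 21192 to 22326, 26300 to 27024 and 24240 to 26175 in the 3 knockdown groups, against 22201 to 24024 in shNT, so marker transcripts of both labelled cell types were found in all 4 groups. By the test described below, 1 fibroblast marker was called higher and 5 lower in shMtfr1l, 2 and 4 in shOpa1, and 1 and 4 in the double knockdown. Of all tested genes 5.56% and 5.19%, 14.3% and 15.1%, and 11.2% and 11.9% were called higher and lower. The higher sum in shOpa1 thus does not mean that most of these markers rose.

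The genes differed widely in abundance, as shown by TPM (levels scaled to gene length as well as library size). In shNT, Nppa averaged 108.1 ± 21.1 TPM, Npr2 98.9 ± 10.9, Npr3 9.11 ± 1.46, Corin 8.47 ± 0.746, Nppb 7.49 ± 0.738 and Npr1 0.595 ± 0.446 (SD, n = 3). Nppa and Npr2 overlapped in that order, as did neighbours from Npr3 down to Nppb, while the gaps on either side of these were wider than the spread of the libraries. In shOpa1 the order was Npr2 at 89.2 ± 4.64 TPM, Nppa at 48.3 ± 4.74, Npr3 at 22.5 ± 2.03, Corin at 5.02 ± 1.60, Nppb at 2.07 ± 1.49 and Npr1 at 0.821 ± 0.407, and the last pair overlapped. The double knockdown kept the order of shOpa1, with Npr2 at 88.1 ± 6.78 TPM and Nppa at 39.7 ± 4.66. In shMtfr1l Corin, at 21.9 ± 1.32 TPM, lay above Npr3, at 14.5 ± 1.47.

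**Figure D1:**
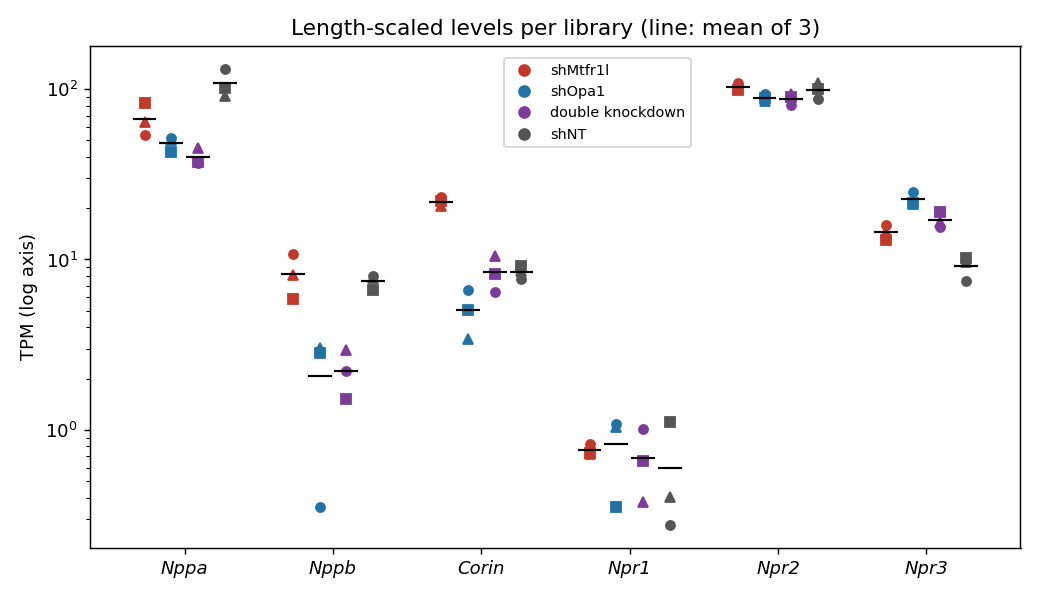
Length-scaled levels (TPM, log axis) of the 6 genes in each of the 12 libraries, coloured by group, with a line at the mean of 3. Nppa and Npr2 are the most abundant, Npr1 stays near 1 TPM or below in every library, and Nppa and Npr3 move in opposite directions between the knockdown groups and shNT.

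Comparisons used edgeR's quasi-likelihood test over 14162 genes with Benjamini-Hochberg adjustment, and a gene was called at an adjusted p under 0.05. All 6 genes passed the filter on low counts, and 5 of them had at least 3 counts in every library. The comparisons with shNT share the same 3 control libraries. In these bulk cultures, fewer cells of a type and less RNA per cell cannot be told apart.

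Nppa was lower in all 3 knockdown groups. Its levels in replicates 1, 2 and 3 were 16.7, 25.5 and 19.8 CPM in shMtfr1l, 15.5, 13.03 and 15.1 in shOpa1 and 11.03, 11.2 and 13.3 in the double knockdown, against 41.5, 31.3 and 28.4 in shNT. The lowest shNT library lay above the highest library of each knockdown group, although shMtfr1l replicate 2 came close to it. The means were 20.7 ± 4.48, 14.6 ± 1.34 and 11.9 ± 1.26 CPM in the knockdown groups of that order, against 33.7 ± 6.89 in shNT (SD, n = 3 each). The fall of Nppa was 1.63-fold in shMtfr1l (-0.70 ± 0.15 on the log2 scale, SE; adjusted p = 0.00113), 2.31-fold in shOpa1 (-1.21 ± 0.15; adjusted p = 6.36e-08) and 2.84-fold in the double knockdown (-1.51 ± 0.15; adjusted p = 1.57e-09). Without replicate 1 of every group, which the titles put on day 7, the fall in shMtfr1l was -0.40 on the log2 scale. It was then no longer called (adjusted p = 0.21). Day and replicate number cannot be told apart here. The double knockdown also lay below shMtfr1l alone, 1.74-fold and with no overlap (adjusted p = 0.000153). Against shOpa1 alone the double knockdown overlapped and was not called (log2 fold change -0.29 ± 0.16, 95% interval -0.61 to 0.02; adjusted p = 0.355).

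Nppb fell in the groups with Opa1 knockdown. It was measured from few reads, with 60, 29 and 41 counts in shMtfr1l, 2, 17 and 18 in shOpa1, 15, 11 and 18 in the double knockdown, and 39, 45 and 48 in shNT. In CPM these were 3.12, 1.69 and 2.38 in shMtfr1l, 0.0990, 0.808 and 0.858 in shOpa1, 0.622, 0.428 and 0.821 in the double knockdown, and 2.38, 1.94 and 2.27 in shNT. Every library with Opa1 knockdown lay below every library without it, and the first shOpa1 library was under the floor of 3 counts. Nppb fell 3.68-fold in shOpa1 (log2 fold change -1.88 ± 0.59, SE; adjusted p = 0.0129), 3.51-fold in the double knockdown against shNT (-1.81 ± 0.58; adjusted p = 0.0193) and 3.84-fold in the double knockdown against shMtfr1l (-1.94 ± 0.58; adjusted p = 0.013). These calls rested on few libraries. That of shOpa1 was lost without shOpa1 replicate 1 (adjusted p = 0.0759) or replicate 1 of every group (0.173). That of the double knockdown against shNT was lost without shNT replicate 1 or 3 (0.0509 and 0.0525), without its own replicate 1 or 2 (0.054 and 0.0816), or without any 1 replicate number in every group (0.0641 to 0.109). That against shMtfr1l was lost without shMtfr1l replicate 1 (0.0743), double knockdown replicate 2 (0.0613), or replicate 1 or 2 of every group (0.109 and 0.0612). In shMtfr1l the groups overlapped (log2 fold change 0.13 ± 0.54, 95% interval -0.97 to 1.23; adjusted p = 0.932), an interval wide enough to hold a change of the size seen for Nppa. The difference between Nppa and Nppb in shMtfr1l was not tested.

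Corin, the protease gene (chr5:72300025-72504540, minus strand, 23 exon blocks), moved in opposite directions in the single knockdowns. It stood at 43.4, 41.1 and 38.7 CPM in replicates 1, 2 and 3 of shMtfr1l, 12.1, 9.27 and 6.25 in shOpa1 and 11.7, 15.1 and 18.9 in the double knockdown, against 14.7, 17.2 and 16.2 in shNT. All shMtfr1l libraries lay above and all shOpa1 libraries below those of shNT, while the double knockdown spanned the shNT range. The means were 41.1 ± 2.38, 9.20 ± 2.92 and 15.2 ± 3.59 CPM in the knockdown groups, against 16.01 ± 1.28 in shNT (SD, n = 3 each). The rise of Corin was 2.56-fold in shMtfr1l (1.36 ± 0.18 on the log2 scale, SE; adjusted p = 5.84e-06), and Corin fell 1.75-fold in shOpa1 (-0.80 ± 0.18; adjusted p = 0.00151). The fall in shOpa1 was not called without replicate 2 of every group (adjusted p = 0.103). In the double knockdown the estimate against shNT was -0.08 ± 0.18 (95% interval -0.45 to 0.29; adjusted p = 0.807). The double knockdown was 2.70-fold below shMtfr1l alone, with no overlap (adjusted p = 1.04e-06), and 1.65-fold above shOpa1 alone, with overlap (adjusted p = 0.0202). The last difference was not called with replicate number as a block (adjusted p = 0.0751), nor when the 2 groups were fitted alone (0.0611). It was also lost without replicate 2 or 3 of shOpa1 (0.0994 and 0.0762), of the double knockdown (0.0857 and 0.114) or of every group (0.356 and 0.402). Of 8 cardiomyocyte markers 6 were called higher and 0 lower in shMtfr1l (5.56% and 5.19% of all tested genes), and 0 higher and 7 lower in shOpa1 (14.3% and 15.1%), the directions of Corin. In the double knockdown 2 were higher and 4 lower than in shNT (11.2% and 11.9% of all), where Corin was not called, and 0 higher and 8 lower than in shMtfr1l (9.72% and 11.7%), where Corin fell. Their part in the Corin values was not tested. Nppa went the other way to these markers in shMtfr1l.

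**Figure D2:**
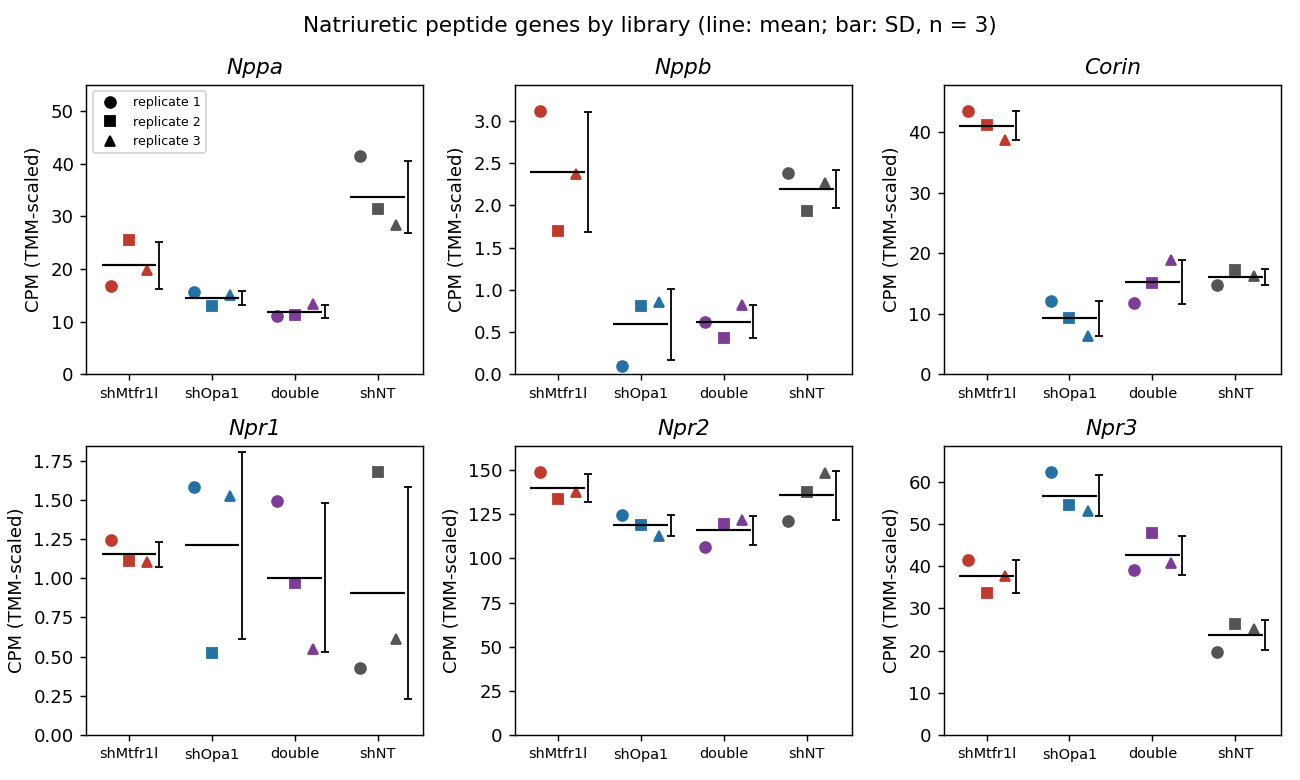
CPM (TMM-scaled) of each gene in every library, 1 panel per gene, with points shaped by replicate, a line at the group mean and a bar of 1 SD (n = 3). The shNT libraries lie above all knockdown libraries for Nppa and below all of them for Npr3, Corin is high in shMtfr1l, and Nppb is low in shOpa1 and the double knockdown.

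Npr3, the clearance receptor gene (chr15:11839897-11905674, minus strand, 8 exon blocks), rose in all 3 knockdown groups. Its levels were 41.4, 33.7 and 37.6 CPM in replicates 1, 2 and 3 of shMtfr1l, 62.4, 54.6 and 53.2 in shOpa1 and 39.2, 47.9 and 40.8 in the double knockdown, against 19.6, 26.4 and 25.04 in shNT. No knockdown library reached down to the highest shNT library, and shOpa1 was the highest group. The means were 37.6 ± 3.86, 56.7 ± 4.93 and 42.6 ± 4.63 CPM in the knockdown groups, against 23.7 ± 3.60 in shNT (SD, n = 3 each). The rise of Npr3 was 1.58-fold in shMtfr1l (0.66 ± 0.11 on the log2 scale, SE; adjusted p = 4.62e-05), 2.39-fold in shOpa1 (1.254 ± 0.11; adjusted p = 1.44e-11) and 1.79-fold in the double knockdown (0.84 ± 0.11; adjusted p = 2.27e-07). These 3 calls held under every alternative setting run for them. The double knockdown overlapped with shMtfr1l alone (log2 fold change 0.18 ± 0.11, 95% interval -0.04 to 0.40; adjusted p = 0.251). It lay below shOpa1 alone without overlap, 1.33-fold (adjusted p = 0.0152), a call lost without shOpa1 replicate 1 (0.129), double knockdown replicate 1 or 3 (0.106 and 0.0798), or replicate 1 or 3 of every group (0.255 and 0.0944).

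Npr2, the C-type peptide receptor gene (chr4:43631935-43651240, plus strand), was the most abundant receptor and changed little. Its levels were 149, 133.8 and 137.5 CPM in shMtfr1l, 124.7, 118.7 and 112.6 in shOpa1, and 106.6, 119.5 and 122 in the double knockdown, against 121.1, 137.5 and 148.7 in shNT. The groups with Opa1 knockdown lay low in the range but each overlapped with shNT. Npr2 fell 1.15-fold in shOpa1 (log2 fold change -0.20 ± 0.07, SE; adjusted p = 0.0305) and 1.17-fold in the double knockdown (-0.23 ± 0.07; adjusted p = 0.014). The call of shOpa1 was lost without its own replicate 2 or 3 (adjusted p = 0.065 and 0.136), without shNT replicate 2 or 3 (0.0855 and 0.249), or without replicate 2 or 3 of every group (0.175 and 0.504). That of the double knockdown was lost without its own replicate 1 (0.124), without shNT replicate 2 or 3 (0.0501 and 0.154), or without replicate 2 or 3 of every group (0.0871 and 0.103). In shMtfr1l the log2 fold change was 0.05 ± 0.07 (95% interval -0.10 to 0.19; adjusted p = 0.782). The double knockdown was 1.21-fold below shMtfr1l alone and did not overlap with it (adjusted p = 0.00351), a call lost without replicate 1 of every group (adjusted p = 0.126).

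Npr1, the receptor of both heart peptides (chr3:90450592-90465866, minus strand), was scarce. It had 1.247, 1.11 and 1.102 CPM in shMtfr1l, 1.58, 0.523 and 1.53 in shOpa1 and 1.49, 0.972 and 0.547 in the double knockdown, against 0.427, 1.68 and 0.614 in shNT. All groups overlapped, and libraries of 1 group differed up to several-fold. No comparison called Npr1. The 95% interval of its log2 fold change in shOpa1, -0.92 to 1.71, was wide enough to hold a 2-fold rise.

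As a share of the summed TPM of the 3 receptor genes, the clearance receptor made up 12.7%, 11.7% and 12.5% in replicates 1, 2 and 3 of shMtfr1l, 20.7%, 19.5% and 19.8% in shOpa1, and 16.1%, 17.4% and 15% in the double knockdown, against 7.84%, 9.11% and 8.14% in shNT. The 4 groups did not overlap in this share, and the rest was nearly all Npr2. These are shares of transcripts, and receptor protein was not measured.

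Set against all genes, 3 of the 6 genes were called in shMtfr1l against shNT (2 higher, 1 lower) where 10.8% of all tested genes were called, 5.56% higher and 5.19% lower. In shOpa1 5 of 6 were called (1 higher, 4 lower), where 29.4% of all were, 14.3% higher and 15.1% lower. The double knockdown against shNT called 4 of 6 (1 higher, 3 lower), where 23.1% of all were called, 11.2% higher and 11.9% lower. Against shMtfr1l it called 4 of 6, all of them lower, where 21.5% of all were called, 9.72% higher and 11.7% lower. Against shOpa1 it called 2 of 6 (1 higher, 1 lower), where 4.77% of all were called, 2.31% higher and 2.46% lower. Groups did not overlap for 3 of 6 genes in shMtfr1l against shNT (26.0% of all tested genes), 4 of 6 in shOpa1 against shNT (40.5%) and 3 of 6 in the double knockdown against shNT (38.9%). For the double knockdown they were 4 of 6 against shMtfr1l (37.0%) and 1 of 6 against shOpa1 (21.7%).

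**Figure D3:**
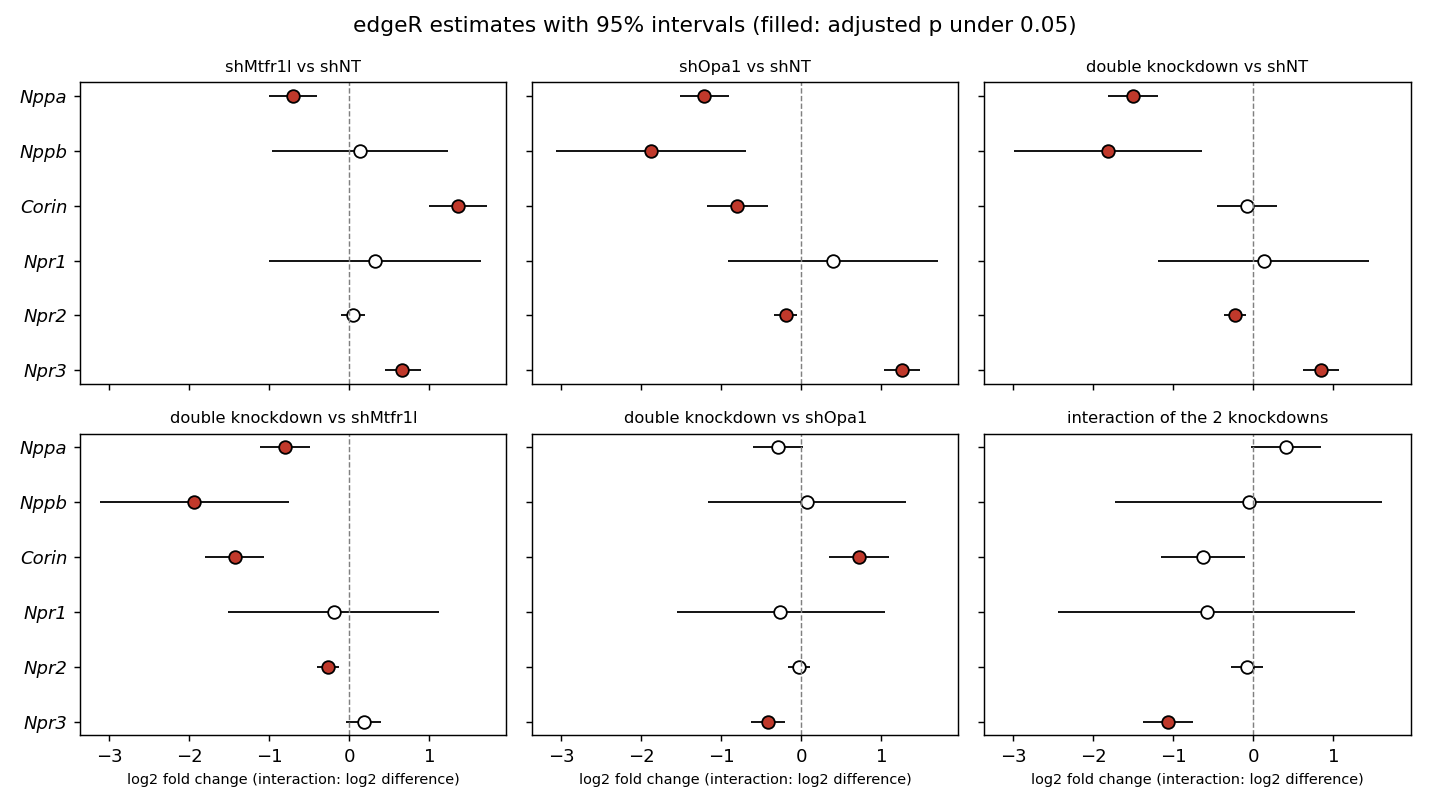
Log2 fold changes of the 6 genes with 95% intervals in the 5 comparisons and, in the last panel, the interaction of the 2 knockdowns, with filled points at an adjusted p under 0.05. Nppa is to the left and Npr3 to the right of 0 in each comparison with shNT, Corin is to the right in shMtfr1l and to the left in shOpa1, and Npr3 alone is called in the interaction.

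The interaction asks whether the effect of Opa1 knockdown differed with and without Mtfr1l knockdown. Npr3 alone of the 6 genes was called, and it was negative, where 3.56% of all tested genes were called, 1.57% positive and 1.99% negative. Adding shOpa1 to shMtfr1l gave 0.18 on the log2 scale, against 1.254 for shOpa1 on the shNT background, a difference of -1.07 ± 0.15 (SE; 95% interval -1.38 to -0.76; adjusted p = 2.16e-05). The rises in the single knockdowns therefore did not add up in the double knockdown on the log scale. Each target kept more transcript under the double knockdown than under its own single one, Mtfr1l 1.66-fold and Opa1 2.04-fold more (adjusted p = 5.27e-06 and 0.00745), and the part of this in the interaction was not tested. For Corin the interaction was -0.63 ± 0.25 (95% interval -1.16 to -0.11; adjusted p = 0.204), and for Nppa 0.41 ± 0.22 (-0.03 to 0.85; adjusted p = 0.371). Without replicate 3 of every group, without shOpa1 replicate 3 or with no filter on low counts, the interaction of Corin was called (adjusted p = 0.00963, 0.0172 and 0.0443). For Nppb and Npr1 the intervals were too wide to tell.

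The earlier set gives 1 shMtfr1l sample and 1 shNT sample at day 7, from 62923192 and 67068683 gene counts (3 summed columns each), and a stated Mtfr1l knockdown of 85%. The labels give 1 sample for each, yet chi-square per gene between its 3 columns was 4.28 to 7.28, against 5.34 to 10.16 between libraries of 1 group in the main set, so the columns could be separate libraries. Counted as 1 sample each there is no test, and the tables were scaled separately, so levels are not set against the main set. Intervals (exact Poisson, 95%) cover counting error only. They take each count as independent, so they are too narrow where both mates of a pair were counted. Nppa stood at 6.43 CPM (5.82 to 7.08) in shMtfr1l and 23.7 (22.5 to 24.9) in shNT, 3.69-fold lower. Its count columns, each scaled to its own total without TMM, ranged from 6.08 to 7.11 CPM in shMtfr1l and from 20.3 to 26.2 in shNT. Corin stood at 103.7 CPM (101.2 to 106.2) in shMtfr1l and 60.4 (58.6 to 62.3) in shNT, 1.72-fold higher. Both went in the direction of the main set. Nppb stood at 0.561 CPM (0.393 to 0.777) in shMtfr1l and 1.28 (1.02 to 1.58) in shNT, from 36 and 84 counts, 2.27-fold lower, whereas shMtfr1l overlapped with shNT in the main set. Npr3 was 1.15-fold higher (28.4 CPM in shMtfr1l and 24.8 in shNT), Npr2 1.18-fold lower (177.1 and 209 CPM) and Npr1 1.31-fold lower (0.499 and 0.653 CPM). Of the 6 genes 1 was past 1.5-fold higher and 2 past 1.5-fold lower, as were 5.55% and 9.76% of 15198 genes (15.3% in either direction).

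Of 26 other genes of natriuretic peptide and cGMP signalling, 24 were tested. Nppc, the gene of the C-type peptide that Npr2 binds, had 0 to 14 counts per library and was not tested, and Ostn, whose product musclin binds Npr3, had 0 to 2. In shMtfr1l 3 were higher and 3 lower (median log2 fold change -0.05, against 0.003 over all genes), in shOpa1 4 higher and 7 lower (-0.12, against 0.01), and in the double knockdown 3 higher and 8 lower than in shNT (-0.14, against 0.004). The called genes were thus 6, 11 and 11 of 24, where 10.8%, 29.4% and 23.1% of all tested genes were called in the same comparisons.

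Among the proteases, Furin, which cuts the brain peptide precursor, rose in all 3 knockdown groups, to 339.5 ± 25.5 CPM in shMtfr1l, 319.4 ± 5.92 in shOpa1 and 316.2 ± 10.5 under the double knockdown, against 231 ± 8.87 in shNT (SD, n = 3 each; adjusted p = 8.2e-10, 6.52e-09 and 2.77e-08). Its interaction was called too (-0.57 ± 0.08 on the log2 scale; adjusted p = 5.42e-06). Pcsk6, a protease that activates corin, fell 1.18-fold in shMtfr1l (adjusted p = 0.0331) and rose 1.56-fold in shOpa1 (adjusted p = 1.11e-08), in each case against the direction of Corin. Dpp4, a peptidase that can trim brain natriuretic peptide, likewise fell 1.52-fold in shMtfr1l (adjusted p = 0.0258) and rose 1.65-fold in shOpa1 (adjusted p = 0.00146).

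The soluble guanylyl cyclase, the other source of cGMP, which answers nitric oxide, fell with Opa1 knockdown. Its subunit gene Gucy1a3 averaged 581.8 ± 30.6 CPM in shMtfr1l, 233.6 ± 12.7 in shOpa1 and 299.9 ± 12.3 under the double knockdown, against 538.5 ± 45.8 in shNT (SD, n = 3 each). It fell 2.31-fold in shOpa1 (adjusted p = 1.13e-18) and 1.80-fold in the double knockdown (adjusted p = 5.01e-14), and in shMtfr1l the estimate was 0.11 ± 0.06 on the log2 scale and was not called. Its partner Gucy1b3 fell 1.96-fold and 1.67-fold in the same groups (adjusted p = 1.64e-12 and 1.07e-09). Pde2a, a cGMP-stimulated phosphodiesterase, rose 1.33-fold in shMtfr1l (adjusted p = 0.000219) and fell 1.504-fold in shOpa1 (adjusted p = 1.68e-07), the same directions as Corin. Pde5a, which degrades cGMP, rose 1.32-fold in shMtfr1l (adjusted p = 0.028). Mrvi1, a target of the cGMP-dependent kinase, fell 1.40-fold in shOpa1 (adjusted p = 8.43e-05) and 1.37-fold in the double knockdown (adjusted p = 0.000264).

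**Figure D4:**
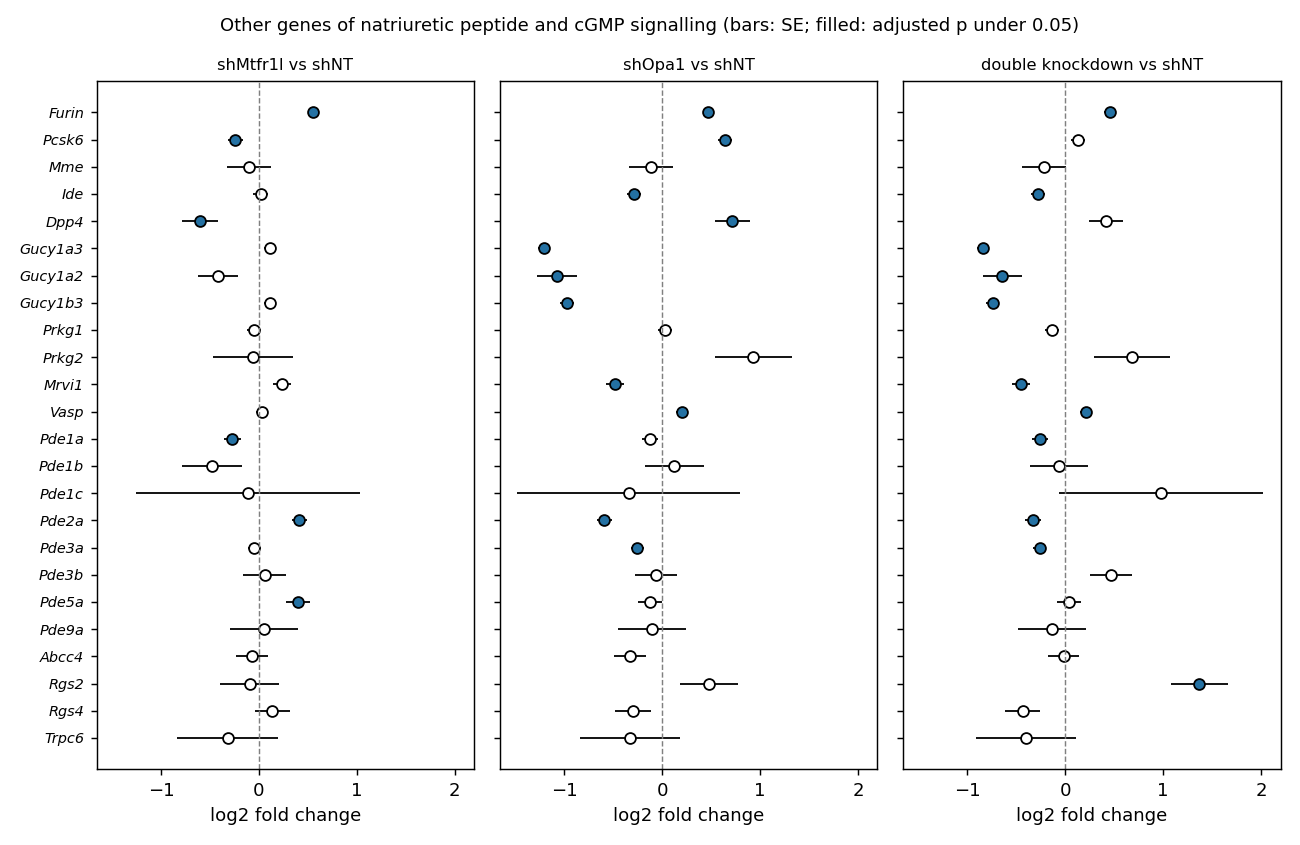
Log2 fold changes with SE of the 24 tested genes of the list in the 3 comparisons with shNT, filled at an adjusted p under 0.05. Furin is to the right of 0 in every panel, and the soluble guanylyl cyclase genes Gucy1a3 and Gucy1b3 are to the left in shOpa1 and the double knockdown.

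Of 18 genes for factors known to regulate Nppa or Nppb, 17 were tested, Isl1 being too low. In shMtfr1l 5 were higher and 1 lower (median log2 fold change 0.16), where 5.56% and 5.19% of all tested genes were. In shOpa1 3 were higher and 2 lower (-0.09), where 14.3% and 15.1% of all were, and in the double knockdown 1 was higher and 1 lower than in shNT (-0.001), where 11.2% and 11.9% of all were. The share called in shOpa1 was thus near that of all genes, and in the double knockdown it was below it. Tbx20, a T-box factor of the heart, fell 1.504-fold in shOpa1 (803.4 ± 44.8 CPM, against 1208 ± 94.2 in shNT; SD, n = 3 each; adjusted p = 2.24e-10) and 1.40-fold in the double knockdown (adjusted p = 2.51e-08). Hand2, a basic helix-loop-helix factor of the ventricle, fell 1.38-fold in shOpa1 (adjusted p = 0.000245), while Srf, the serum response factor gene, rose 1.19-fold there (adjusted p = 0.00227). Mef2d, a gene of the MEF2 family, rose in all 3 knockdown groups, 1.26-fold in shMtfr1l, 1.26-fold in shOpa1 and 1.39-fold with both shRNAs (adjusted p = 0.0176, 0.00655 and 0.000177). In shMtfr1l Hopx, a small homeodomain cofactor of SRF, rose 3.20-fold (8.91 ± 0.203 CPM, against 2.78 ± 0.173 in shNT; SD, n = 3 each; adjusted p = 4.57e-05), and Tead1 fell 1.24-fold (adjusted p = 0.000183). Mef2c rose 1.18-fold in shMtfr1l (adjusted p = 0.0122), and since the vector carries Mef2c, its counts can hold transcripts of the vector as well as of the cell's own gene. No factor of this list was called in the interaction.

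Of the genes within 60 kb of the peptide genes, those described here were not called lower in shOpa1 or the double knockdown. Plod1 rose 1.36-fold in shOpa1 and 1.33-fold in the double knockdown (adjusted p = 3.56e-07 and 2.79e-06), and 2510039O18Rik rose 1.37-fold and 1.28-fold (adjusted p = 6.13e-07 and 6.82e-05). Clcn6, whose end lies next to Nppa, was called in neither (log2 fold change 0.001 ± 0.16 and 0.09 ± 0.16).

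Across the 12 libraries Nppa and Npr3 ran opposite to each other (Pearson r = -0.85 in log2 CPM) and Nppa with Nppb (0.63), while Nppa and Corin were only loosely related (0.28). Among 10868 candidate genes that averaged 5 CPM or more, the pattern of Nppa was most like that of Stk17b, Pip4k2a and Scd2 (r = 0.965, 0.956 and 0.946). Corin was most like Dnmt3a, Atp2a2, the calcium pump of the sarcoplasmic reticulum, and Efr3b (0.979, 0.977 and 0.975). Npr3 was most like Dynll2, Tgfa and Rad54l2 (0.979, 0.976 and 0.971), and Npr2 most like Ccser2, Pik3r1 and Ide (0.948, 0.937 and 0.928). The scarce genes had weaker matches, Acvr2a, Meaf6 and Rbmx for Nppb (0.930, 0.929 and 0.928) and Zxdb, Dusp7 and Zfpm2 for Npr1 (0.871, 0.815 and 0.798). These correlations describe 4 groups of 3 libraries that share depth and group differences, and carry no test.

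Other cell types moved with the groups in part. The summed CPM of 6 epicardial markers was 164.3 to 174.9 in shMtfr1l, 182 to 223.6 in shOpa1 and 175.2 to 200.9 in the double knockdown, against 252.7 to 263.3 in shNT. It was thus lower than in shNT in every knockdown group, as Nppa was. Among the knockdown groups, however, this sum was lowest in shMtfr1l, where Nppa was highest. Of these 6 markers 4, 3 and 5 were called lower in the same order and 0 higher, where 5.19%, 15.1% and 11.9% of all tested genes were lower. The 8 smooth muscle and pericyte markers summed to 284.1 to 299.6, 334 to 362 and 296.8 to 317.3 CPM, against 299.8 to 311 in shNT. Of these 8, 0 were called higher and 1 lower in shMtfr1l, 2 and 2 in shOpa1, and 0 and 1 in the double knockdown. The 9 endothelial and endocardial markers summed to 78.2 to 88.6, 78.7 to 90.6 and 71.3 to 85.4 CPM, against 70.1 to 72.5 in shNT, with Cytl1 at 0 in every library. Of the 8 tested, 2 were called higher and 1 lower in shMtfr1l, 2 and 1 in shOpa1, and 1 and 0 in the double knockdown. Of all tested genes 5.56%, 14.3% and 11.2% were called higher in these comparisons with shNT. The 5 macrophage markers found in the tables summed to 35.3 to 151.9, 65.2 to 200.7 and 210.7 to 244.5 CPM, against 58.6 to 112.2 in shNT, with 0 of 5 called in any comparison. The part of these cell types in the values of the 6 genes was not tested.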

How the data were processed

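The authors deposited raw counts per gene, made with featureCounts 2.0.6 on the UCSC mm10 annotation, strand-specifically, per the file headers. Both mates of a pair were counted on their own (65.86% of counts from 1 to 20 were even), and a floor of 3 counts can stand for fewer fragments than counts. Of tools, the submitters' processing notes name FastQC and DESeq2. An aligner was not given in the sources used here.

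Counts of 12 libraries were scaled with TMM and filtered with filterByExpr (14162 of 23420 genes kept). They were then fitted with a coefficient per group and robust dispersion in edgeR 4.0.16 under R 4.3.3, which left 8 residual degrees of freedom. The quasi-likelihood tests and intervals add to these the prior degrees of freedom that edgeR estimates across genes. P-values were adjusted over all tested genes (Benjamini-Hochberg) and called under 0.05. The common biological coefficient of variation was 12.04%. Replicates differed beyond counting noise (chi-square per gene of 5.34 to 10.16), so none was a duplicate. Floors and Poisson intervals cover counting error only, and the intervals are too narrow where both mates of a pair were counted.

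The earlier set's columns were summed per labelled sample, and its 12 fibroblast columns, which could not be tied to single samples, are not used here. Alternatives were RLE scaling, no filter, DESeq2 1.42.0, each library or replicate left out, the groups alone, a replicate block, the earlier pair added and a non-robust dispersion. The titles tie replicate numbers to days, which pairs the samples by label. Over 15 pairs of same-numbered libraries, the correlations of their deviations from the group means were -0.10 to 0.12, on both sides of 0. Pairs with different numbers ranged from -0.14 to 0.14.

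Named genes were the 6 genes, the targets, up to 4 called genes of each list in each comparison, those with the smallest adjusted p, neighbours within 60 kb (1 of them is not reported here) and the 3 genes most like each of the 6. The genes and lists were chosen with earlier results of these data known. The script was tested on simulated data.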

Additional observations from a re-analysis of the deposited data

Results flagged for a closer look

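The effect of Opa1 knockdown on Npr3 differed between the Mtfr1l knockdown and the shNT background, by -1.07 on the log2 scale (SE 0.15; adjusted p = 2.16e-05, edgeR quasi-likelihood test of the interaction). Npr3 averaged 37.6 CPM in shMtfr1l, 56.7 in shOpa1, 42.6 in the double knockdown and 23.7 in shNT. Over the 20 alternatives run for it, the difference kept its sign and its call (-1.35 to -0.75, with adjusted p of up to 0.018). Both knockdowns were weaker in the double knockdown, and their part in the difference was not tested.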

How the results depend on the processing

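Of 576 recomputed values of single genes, 498 kept their direction and their side of the threshold, 40 lost their call, 3 gained one and 35 changed sign, none of them a called value. RLE scaling, DESeq2 and the non-robust dispersion changed no call of the 6 genes, and the replicate block changed that of Corin in the double knockdown against shOpa1 alone (log2 0.731, adjusted p = 0.0751). Calls lost without single libraries stand beside each gene.

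Leaving out libraries gave 790 to 1289 called genes in shMtfr1l against shNT (1523 with all), 1964 to 2876 in the double knockdown against shMtfr1l (3041), 199 to 589 against shOpa1 (675) and 161 to 539 in the interaction (504). Of the 6 genes, 3 to 5 were called in shOpa1 (5 with all), 2 to 4 in the double knockdown against shNT (4), 2 to 4 against shMtfr1l (4), 0 to 1 against shOpa1 (2) and 1 to 2 in the interaction (1). With the block or with the 2 groups alone 1 was called in the double knockdown against shOpa1, and with no filter 2 in the interaction.

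Signs that turned belonged to uncalled estimates, given as log2 ranges over the fits that left libraries out. In shMtfr1l Nppb ran from -0.107 to 0.326, Npr1 from -0.058 to 1.153 and Npr2 from -0.077 to 0.128. With the earlier pair added, Nppb was -0.196 and Npr2 -0.029. Npr1 ran from -0.167 to 1.553 in shOpa1, and in the double knockdown from -0.588 to 0.952 against shNT, from -0.591 to 0.094 against shMtfr1l and from -0.66 to 0.227 against shOpa1. In the double knockdown Corin ran from -0.261 to 0.079 against shNT, and against shOpa1 Nppb from -0.423 to 0.572 and Npr2 from -0.107 to 0.063. In the interaction Nppb ran from -0.552 to 0.329, Npr1 from -1.754 to 0.097 and Npr2 from -0.235 to 0.139. The cause was not tested. Nppb and Npr1 had the fewest counts of the 6 genes and the widest intervals.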

Other observations

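Other genes of the fetal and stress programme, in which Nppa and Nppb are usually counted, moved in both directions. Of 10 tested, 5 were higher and 1 lower in shMtfr1l (median log2 fold change 0.49, against 0.003 over all genes), where 5.56% and 5.19% of all tested genes were. In shOpa1 5 were higher and 2 lower (0.22, against 0.01), where 14.3% and 15.1% of all were, and in the double knockdown 5 were higher and 2 lower (0.28, against 0.004), where 11.2% and 11.9% of all were, each against shNT. Xirp2, an actin-binding protein of the intercalated disc, averaged 2.28 ± 0.464 CPM in shMtfr1l, 19.4 ± 3.28 in shOpa1 and 17.04 ± 2.09 under the double knockdown, against 1.24 ± 0.433 in shNT (SD, n = 3 each). It rose 16.1-fold in shOpa1 (adjusted p = 1.67e-16, edgeR quasi-likelihood test). Csrp3, a muscle LIM protein, and Ankrd1, a stress-responsive ankyrin repeat protein, rose in all 3 groups (adjusted p of 0.0199 or less for Csrp3 and of 0.000659 or less for Ankrd1). Tnni1, the slow skeletal troponin I of the embryonic heart, fell 6.04-fold in shOpa1 (adjusted p = 6.54e-10), as Nppa and Nppb did, and the beta myosin heavy chain gene Myh7 rose 3.20-fold in shMtfr1l (adjusted p = 5.55e-05) and fell 3.12-fold in shOpa1 (adjusted p = 0.000108).

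Among 12 tested atrial and secretory granule genes, shMtfr1l had 7 higher and 0 lower, against shNT (median log2 fold change 0.30, against 0.003 over all genes), where 5.56% and 5.19% of all tested genes were. In shOpa1 1 was higher and 7 lower (-0.33, against 0.01), where 14.3% and 15.1% of all were, and in the double knockdown 0 were higher and 5 lower (-0.15, against 0.004), where 11.2% and 11.9% of all were. Sln, the atrial regulator of the calcium pump, averaged 92 ± 6.75 CPM in shMtfr1l, 14.2 ± 2.82 in shOpa1 and 31.2 ± 2.31 under the double knockdown, against 27.5 ± 3.04 in shNT (SD, n = 3 each). It rose 3.35-fold in shMtfr1l (adjusted p = 2.28e-14) and fell 1.93-fold in shOpa1 (adjusted p = 4.18e-08). Myl7 and Myl4, atrial myosin light chains, fell 2.43-fold and 1.68-fold in shOpa1 (adjusted p = 1.39e-08 and 3.21e-15). Pam, a membrane protein of atrial granules that binds the atrial peptide precursor, rose 1.21-fold in shMtfr1l (adjusted p = 9.97e-05) and 1.097-fold in shOpa1 (adjusted p = 0.0372).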
